A study of Mus musculus with 9 samples.

Results

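This account concerns 40 genes of DNA replication and S phase, the stage of the cell cycle in which the genome is copied. They were taken by gene name from the probes of a mouse expression array, on which 57 probes carried the name of a member, out of 27343 genes on the array. A probe was used where the scanner software called it well above background on 3 or more of the 9 arrays. By that filter 35 members were measured and 5 were not.

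Replication begins at origins that the origin recognition complex marks and that Cdc6 and Cdt1 load with the ring-shaped MCM helicase. The helicase becomes active when Cdc45 and the GINS complex join it, and polymerases, a sliding clamp, nucleotide-supplying enzymes and histone chaperones then follow the fork. Hepatocytes of an adult liver are mostly quiescent and transcribe these genes at low levels, while regeneration after injury, and division of other cells in the tissue, raise them.

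The livers came from male C57bl/6J mice aged 16 weeks, with 3 arrays for each of 3 diets eaten for 12 weeks. The HFD+APS group ate a high-fat diet (60 kcal% fat) into which Astragalus polysaccharides (APS), carbohydrates from a plant of Chinese medicine, were mixed at 40 g per kg. The HFD group ate that high-fat diet without APS, and the chow group ate standard food. The study held 24 mice, and the 9 livers were picked by their histology and triglyceride results, so p-values measure the spread between picked livers. All mice were of 1 strain and 1 sex, and each array held the RNA of a whole liver sample, in which fewer cells of a type and less RNA per cell cannot be told apart.

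All 8 hepatocyte markers examined, among them Alb and Ttr, were measured, with a summed level of 1944 to 2340.4 times the array's upper-quartile signal in HFD+APS livers, 1902 to 2104 times in HFD livers and 2194 to 2273 times in chow livers. By limma, Serpina1c fell by 0.73 (log2) in HFD relative to chow (adjusted p = 0.0175). Cps1 rose by 1.11 in HFD+APS relative to HFD (adjusted p = 0.0346), and no other hepatocyte marker passed in any comparison. The arrays lay on 3 slides. The chow arrays filled 1 slide, the HFD arrays and HFD+APS 1 another, and HFD+APS 2 and HFD+APS 3 the third, so that slide and diet cannot be told apart in either comparison with chow. Spots well above background made up 50.4 to 54.1% of the arrays on the slide that held HFD, 61.5 to 68.4% on the chow slide and 63.5 to 64.5% on the other. Of the 35 measured members, 29 to 34 were well above background on the HFD+APS arrays, 30 to 33 on the HFD arrays and 33 on each chow array. HFD 3 stood apart from its group in neutrophil markers, described with the results they touch. By the median of levels centred on each gene's mean, chow 2 was the lowest of the 9 livers in Kupffer cell markers (-1.18). It was also the lowest in monocyte and macrophage (-1.18), neutrophil (-1.50), endothelial (-0.78) and stellate cell (-0.72) markers.

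In HFD livers, 6 of the 35 measured replication genes rose relative to chow and 0 fell. They were 3 subunits of the MCM helicase (Mcm4, Mcm5 and Mcm6), the GINS subunit Gins2, the origin recognition subunit Orc6 and the histone chaperone Asf1b, and the 5 with a measured fold rose by 1.36-fold (Orc6) to 2.13-fold (Asf1b). Among all 17633 features tested, 4.55% rose and 6.37% fell in that comparison. The median log2 difference of the measured members was 0.30, against -0.04 over all features, with 29 members positive and 6 negative. In 18 members every HFD array lay above every chow array (16.6% of all features), and in 1, Hells, every HFD array lay below (22.3% of all features). The test was limma's 2-sided moderated test, with Benjamini-Hochberg adjustment over all features at 0.05, in which 16 members had an unadjusted p under 0.05, all of them higher (13.2% of all features were higher and 18.2% lower at that p). Without chow 2 the count was 0, and without chow 1, chow 3, HFD 2 or HFD 3 it was 2 each time. With slide as a random block it was also 2. The count thus changed on leaving out 1 liver, while the median stayed between 0.29 and 0.40.

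Values below are log2 levels relative to the 75th percentile of the array, which compare livers for 1 gene and not genes with each other. The helicase genes held most of the members that rose in HFD, 4 of the 9 measured, with a median difference of 0.75. Mcm5, a subunit of the helicase ring, stood at -3.21, -3.51 and -2.91 in HFD+APS livers, at -2.33, -2.11 and -1.63 in HFD livers, and at -3.29, -3.18 and -2.79 in chow livers. The HFD livers did not overlap either of the other groups, which overlapped each other. Mcm5 differed by 1.07 ± 0.23 (log2, SE) between HFD and chow, 2.10-fold, with an adjusted p of 0.0283. The probe of Mcm5 lies at chr8:77651350-77651410 in mm9, and whether this and the other probes lie in coding or untranslated exons was not determined.

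Mcm4, another subunit of that ring, measured 0.44, 0.18 and 0.32 in HFD+APS livers, 0.64, 0.85 and 1.30 in HFD livers, and 0.06, -0.18 and 0.05 in chow livers. The 3 groups did not overlap, with HFD+APS between the others. The HFD against chow difference of Mcm4 was 0.95 ± 0.18, 1.94-fold, with an adjusted p of 0.0188 (probe at chr16:15624372-15624431). A second Mcm4 probe, well above background on 3 arrays only, differed by 0.10 between HFD and chow, and the mean of both probes did not pass (adjusted p = 0.149). Mcm6, also of the ring, read 0.77, 0.50 and 0.78 in HFD+APS livers, 1.1, 1.32 and 1.86 in HFD livers, and 0.73, 0.48 and 0.70 in chow livers. All HFD livers were above all others, and HFD exceeded chow by 0.79 ± 0.20, 1.73-fold (adjusted p = 0.0404, probe at chr1:130228178-130228237).

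Gins2, a subunit of the GINS complex that travels with the helicase, gave -4.08, -4.37 and -4.08 in HFD+APS livers, -3.64, -3.00 and -2.84 in HFD livers, and -4.38, -4.57 and -4.47 in chow livers. It was not well above background on any chow array, and it was on 2 of 3 arrays in each of the other groups, so it entered the test through those groups. HFD was 2.03-fold chow when each chow value was taken as no less than the dimmest probe that its array still called above background. HFD 1, at -3.64, was itself under that limit for its array (-3.10), so 2.03-fold is not a sure lower bound. The fitted difference had an adjusted p of 0.0123 by limma (probe at chr8:123112627-123112686). Gins2 was past the threshold without any liver except chow 2, whose omission gave an adjusted p of 0.0505. The other calls were less stable: Mcm4 was lost without chow 2 or chow 3, Mcm5 without chow 1, chow 2, HFD 2 or HFD 3, and Mcm6 without 7 of the 9 livers in turn.

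The remaining helicase genes did not pass in HFD against chow. Mcm2 had -2.55, -2.53 and -2.54 in HFD+APS livers, -1.75, -1.77 and -0.95 in HFD livers, and -2.10, -2.43 and -2.20 in chow livers. HFD was above chow on every array, by 0.75 ± 0.22 (adjusted p = 0.0600), with HFD 3 the highest. Mcm3 differed by 0.66 ± 0.21 (adjusted p = 0.0769), again without overlap. In contrast, Mcm7, a subunit of the same ring, had 1.66, 1.67 and 1.78 in HFD+APS livers, 1.69, 1.79 and 1.81 in HFD livers, and 1.59, 1.91 and 1.88 in chow livers. Its groups overlapped throughout, and HFD minus chow was -0.03 ± 0.11 (adjusted p = 0.890). Gins1 (0.27 ± 0.16) and Mcm10, which helps to start the helicase (-0.32 ± 0.34), had overlapping groups as well.

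**Figure D1:**
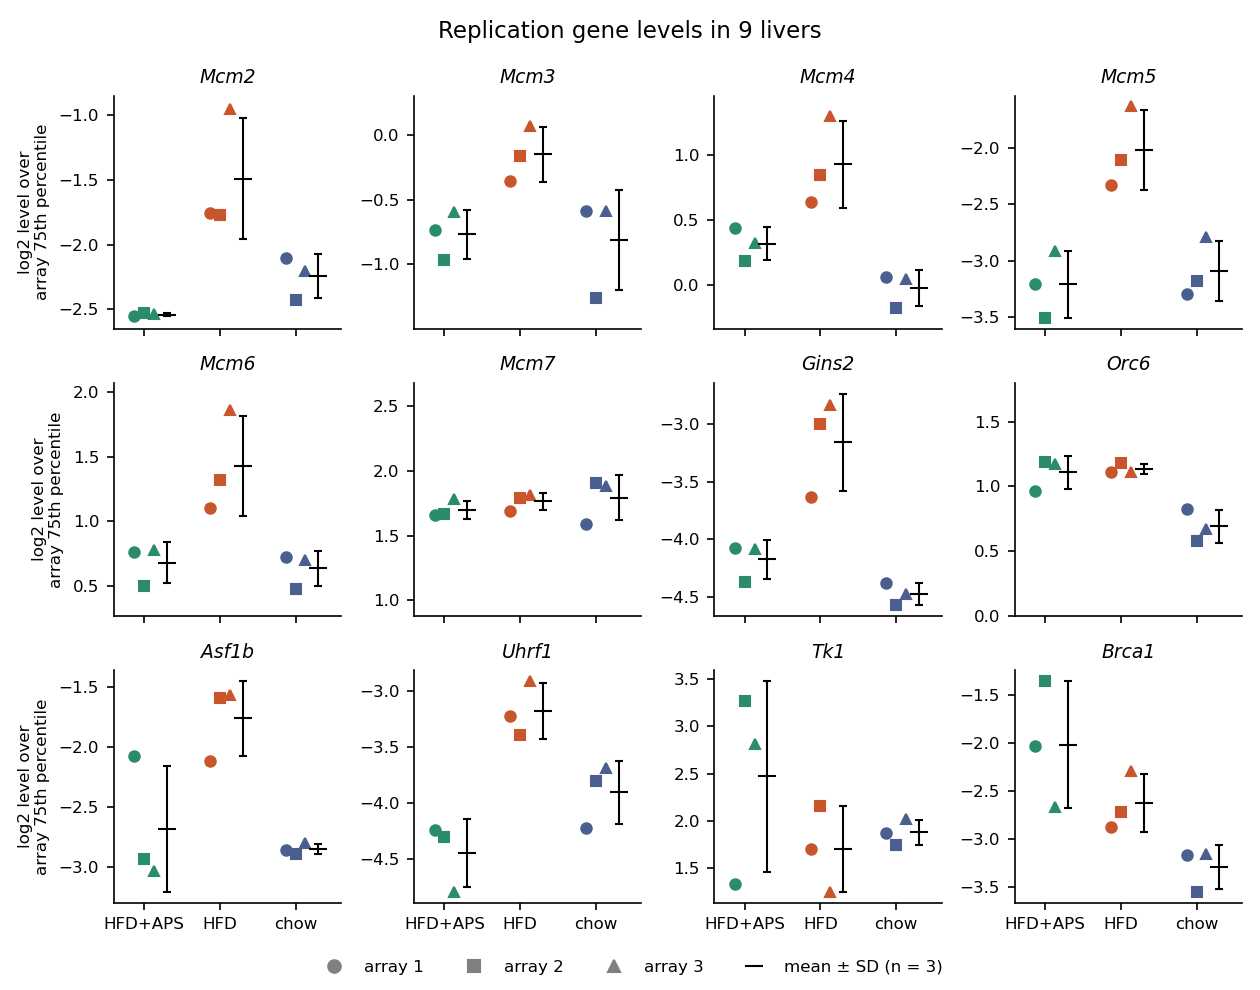
Log2 level over the array's 75th percentile (y axis) of selected replication genes in HFD+APS, HFD and chow livers (x axis), with 1 point per array, marker shapes for arrays 1 to 3 of a group, and bars for the mean ± SD. The HFD livers lie above the chow livers for Mcm4, Mcm5, Mcm6 and Gins2, while Mcm7 stays between 1.59 and 1.91 in every liver.

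E2F transcription factors are known to drive many S-phase genes, so the promoters of the members were read from RefSeq (GRCm38.p6), in windows of 300 bases around each annotated start. A window was found for 34 of the 40 members. Those shown, of Mcm5, Mcm6, Mcm7 and Uhrf1, all hold an E2F match. Mcm5, Mcm6 and Uhrf1 passed a test and Mcm7, of the same ring as Mcm5 and Mcm6, did not. Orc6 and Asf1b also passed a test, and their windows, which hold no match, are not shown. Capitals mark the letters of an E2F site, searched on both strands as TTTCGCGC, TTTGGCGC, TTTCCCGC or TTTGCCGC, and matches that overlap run together.
Mcm5, chr8:75109259-75109558, plus strand: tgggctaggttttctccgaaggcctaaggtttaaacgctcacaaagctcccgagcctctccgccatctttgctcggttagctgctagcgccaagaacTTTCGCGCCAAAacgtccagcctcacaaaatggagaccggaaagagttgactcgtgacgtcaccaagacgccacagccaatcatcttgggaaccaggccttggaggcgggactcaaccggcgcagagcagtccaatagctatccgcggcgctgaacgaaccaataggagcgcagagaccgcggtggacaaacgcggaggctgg
Mcm6, chr1:128359656-128359955, minus strand: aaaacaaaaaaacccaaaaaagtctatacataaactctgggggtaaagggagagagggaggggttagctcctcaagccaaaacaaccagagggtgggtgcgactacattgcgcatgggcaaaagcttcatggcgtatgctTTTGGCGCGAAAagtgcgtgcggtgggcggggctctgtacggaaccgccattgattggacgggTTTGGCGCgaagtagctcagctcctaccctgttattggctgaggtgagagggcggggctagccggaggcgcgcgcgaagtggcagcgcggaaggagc
Mcm7, chr5:138171834-138172133, minus strand: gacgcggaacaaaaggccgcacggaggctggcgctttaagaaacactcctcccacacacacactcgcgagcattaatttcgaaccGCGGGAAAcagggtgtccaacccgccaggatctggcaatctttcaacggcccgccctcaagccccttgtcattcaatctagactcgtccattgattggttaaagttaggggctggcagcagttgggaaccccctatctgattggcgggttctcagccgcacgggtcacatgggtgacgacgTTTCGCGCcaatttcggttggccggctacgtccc
Uhrf1, chr17:56304063-56304362, plus strand: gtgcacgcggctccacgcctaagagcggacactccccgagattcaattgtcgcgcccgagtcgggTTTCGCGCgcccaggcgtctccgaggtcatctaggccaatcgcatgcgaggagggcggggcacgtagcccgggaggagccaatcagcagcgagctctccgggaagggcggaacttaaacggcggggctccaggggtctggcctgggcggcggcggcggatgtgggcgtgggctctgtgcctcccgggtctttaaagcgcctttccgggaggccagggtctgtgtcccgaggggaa

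In Mcm5 the match begins 153 bases before the start, where TTTCGCGC and, on the other strand, TTTGGCGC overlap. Mcm6 holds such an overlapping pair and a separate match, and Mcm7 holds matches on either side of its start. Uhrf1 has a further window, and so does Mcm7, with no match in either. E2F letters occurred in 14 of the 34 members with a window (Mcm3, Mcm5, Mcm6, Mcm7, Cdc6, Cdt1, Orc1, Rfc3, Pola1, Pole2, Pold1, Lig1, Uhrf1 and Hells), against 2.6% of all 27025 genes with one. Of these 14, 3 were not measured in liver, 2 rose in HFD relative to chow, and Mcm7, Lig1 and Pold1 differed by under 0.05 on the log2 scale. Of the other 4 genes that rose, Orc6 and Asf1b had no match in their windows, and Mcm4 and Gins2 were not among the members with a window. The letters CCAAT, which NF-Y binds, were in 20 of the 34 against 41.1% of all genes, and TTTGAA, the cell cycle genes homology region of many mitotic promoters, in 4 of the 34 against 20.2%. A match of letters is a description of the window only.

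Of the origin licensing genes, Orc6 and Cdt1 were measured. Orc6, the smallest subunit of the origin recognition complex, had 0.96, 1.19 and 1.17 in HFD+APS livers, 1.11, 1.18 and 1.11 in HFD livers, and 0.82, 0.57 and 0.67 in chow livers. Both high-fat groups lay above every chow liver and overlapped each other. Orc6 rose by 0.44 ± 0.11 in HFD relative to chow, 1.36-fold (adjusted p = 0.0405, probe at chr8:87831769-87831828), a call lost on leaving out any liver but HFD+APS 1 (adjusted p up to 0.120). Cdt1, which loads the helicase, differed by 0.06 ± 0.27, and chow 1 stood at 0.98, above the other 8 livers at -0.21 to 0.39.

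Asf1b, a chaperone that hands histones to newly made DNA, gave -2.08, -2.94 and -3.04 in HFD+APS livers, -2.12, -1.59 and -1.57 in HFD livers, and -2.86, -2.89 and -2.81 in chow livers. HFD was above chow in every liver, and HFD+APS 1 lay with the HFD livers, apart from HFD+APS 2 and HFD+APS 3. The HFD against chow difference of Asf1b was 1.09 ± 0.26, 2.13-fold (adjusted p = 0.0374, probe at chr8:86493842-86493901), and it was lost on leaving out any chow liver, HFD 2 or HFD 3 (adjusted p up to 0.109).

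The other chromatin genes did not pass in HFD against chow. Chaf1a, the large subunit of chromatin assembly factor 1, which deposits histones at the fork, had -4.20, -4.54 and -3.97 in HFD+APS livers, -3.49, -2.69 and -3.02 in HFD livers, and -3.91, -4.40 and -3.44 in chow livers. Chow 3 overlapped the HFD range, and HFD minus chow was 0.85 ± 0.29 (adjusted p = 0.0917), the widest difference among members that did not pass. Its partner Chaf1b differed by 0.07 ± 0.13. Hells, a chromatin remodeller needed for DNA methylation, had -4.43, -3.96 and -3.78 in HFD livers and -3.78, -3.46 and -3.38 in chow livers, a difference of -0.52 ± 0.31 (adjusted p = 0.295), and was not well above background on any HFD array.

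None of the 6 measured polymerase and primase genes passed. By the brightest probe of each gene, all 6 differences of HFD minus chow were positive, from 0.01 (Prim2) to 0.76 (Pole). A further probe that passed the filter gave the opposite sign for Pola2 (-0.49, well above background on 3 arrays) and Pold1 (-0.09, on 9 arrays). Pole, the catalytic subunit of the leading-strand polymerase, had -2.27, -1.69 and -1.45 in HFD+APS livers, -1.59, -1.13 and -1.31 in HFD livers, and -1.91, -2.29 and -2.13 in chow livers. Its HFD livers were all above the chow livers, by 0.76 ± 0.22 (adjusted p = 0.0627), and the HFD+APS livers spanned both. Pola1, the catalytic subunit of the polymerase that starts each fragment, differed by 0.48 ± 0.20 (adjusted p = 0.144), and the primase subunit Prim1 by 0.31 ± 0.13 (adjusted p = 0.151). Pold1, of the lagging-strand polymerase, differed by 0.02 ± 0.14, and Pola2 by 0.18 ± 0.40 with no HFD array well above background.

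The clamp and its loader moved little. Pcna, the sliding clamp, read 2.34, 2.64 and 2.69 in HFD+APS livers, 2.58, 2.65 and 2.42 in HFD livers, and 2.29, 2.29 and 2.40 in chow livers, and HFD minus chow was 0.22 ± 0.12 (adjusted p = 0.257). The clamp loader subunits Rfc3, Rfc4 and Rfc5 differed by -0.16 to 0.27. Among the lagging-strand genes, the single-strand binding subunit Rpa2 differed by 0.63 ± 0.18 (adjusted p = 0.0616) and the flap nuclease Fen1 by 0.53 ± 0.18 (adjusted p = 0.0936), both without overlap of HFD and chow, and the ligase Lig1 by -0.04 ± 0.17.

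Of the nucleotide-supply genes, 0 of 5 passed in HFD against chow, and Dut, the dUTPase, had an unadjusted p of 0.0172 (0.36 ± 0.12, adjusted p = 0.0892). Rrm1 and Rrm2, the subunits of ribonucleotide reductase, differed by 0.18 ± 0.11 and 0.30 ± 0.31, and Tyms, the thymidylate synthase, by 0.27 ± 0.16. Brca1, of homologous recombination repair, had -2.03, -1.35 and -2.67 in HFD+APS livers, -2.88, -2.72 and -2.30 in HFD livers, and -3.17, -3.56 and -3.16 in chow livers. Brca1 was above every chow liver in both high-fat groups, by 0.66 ± 0.32 in HFD (adjusted p = 0.191) and by 1.28 ± 0.32 in HFD+APS (adjusted p = 0.0623), neither past the threshold.

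In HFD+APS livers, 1 of the 35 measured replication genes, Uhrf1, fell relative to HFD, and 0 rose, where 1.5% of all features passed in either direction. Uhrf1 binds hemimethylated DNA behind the fork and recruits the maintenance methyltransferase. It had -4.24, -4.31 and -4.80 in HFD+APS livers, -3.23, -3.40 and -2.91 in HFD livers, and -4.22, -3.80 and -3.69 in chow livers, so the HFD livers lay above all the others. Uhrf1 fell by 1.27 ± 0.21 on the log2 scale in HFD+APS relative to HFD (adjusted p = 0.0320, probe at chr17:56462657-56462716). Its signal was close to background, well above it on 1 HFD+APS array, 2 HFD arrays and 2 chow arrays, so the size of this difference is not a sure fold, and a further Uhrf1 probe was well above background on none. The call was lost in 7 of 10 other processing settings (adjusted p up to 0.231) and on leaving out any of 7 livers. In HFD against chow Uhrf1 differed by 0.73 ± 0.21 (adjusted p = 0.0606).

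Among all features, 0.476% rose and 1.03% fell in HFD+APS against HFD, so that 1 call among 35 members is close to the share over the array. The median difference of the measured members was -0.28, against 0.00 over all features, with 7 members positive and 28 negative. Every HFD+APS array lay below every HFD array in 16 members (11.8% of all features), and the reverse held in 0 (12.6% of all features). At an unadjusted p under 0.05 by limma, 14 members were lower and 0 higher (9.48% and 8.38% of all features). This comparison and HFD against chow share the HFD livers, so the differences of a gene are given side by side without a test of their likeness.

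The members nearest the threshold after Uhrf1 were helicase genes. By limma, HFD+APS minus HFD was -1.19 ± 0.23 for Mcm5 (adjusted p = 0.0506), -1.02 ± 0.20 for Gins2 (adjusted p = 0.0563) and -1.05 ± 0.22 for Mcm2 (adjusted p = 0.0611). HFD minus chow was 1.07 for Mcm5 and 0.75 for Mcm2, while Gins2 had no sure fold there. For Mcm6 and Mcm4 HFD+APS minus HFD was -0.75 ± 0.20 and -0.61 ± 0.18, and for Mcm7 -0.06 ± 0.11. Mcm10 had 5.06, 5.57 and 5.89 in HFD+APS livers, 5.34, 5.27 and 4.10 in HFD livers, and 5.06, 5.32 and 5.31 in chow livers, so that HFD 3 was the lowest liver and HFD+APS minus HFD was 0.60 ± 0.34 (adjusted p = 0.395). Mcm5 passed in place of Uhrf1 when the replicate number was kept as a block (adjusted p = 0.0369). Of the chromatin genes, Chaf1a differed by -1.17 ± 0.29 (adjusted p = 0.0896) and Asf1b by -0.92 ± 0.26 (adjusted p = 0.128).

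Smaller differences below HFD ran through other roles without passing the threshold. Fen1 differed by -0.67 ± 0.18 (adjusted p = 0.121), Rrm1 by -0.40 ± 0.11 (adjusted p = 0.13), Rfc4 by -0.46 ± 0.13 (adjusted p = 0.133) and Lig1 by -0.41 ± 0.17 (adjusted p = 0.248), each with groups that did not overlap. Pcna, Cdt1, Gins1 and Orc6 differed by -0.02 to 0.02 between HFD+APS and HFD. Of the 7 members with a positive difference, Tk1, Brca1 (0.61 ± 0.32, adjusted p = 0.351) and Mcm10 had the largest. Tk1, the thymidine kinase that salvages thymidine, read 1.34, 3.27 and 2.81 in HFD+APS livers, 1.70, 2.15 and 1.25 in HFD livers, and 1.87, 1.75 and 2.02 in chow livers. HFD+APS 2 and HFD+APS 3 were above every other liver and HFD+APS 1, on another slide, was not. The difference of Tk1 was 0.77 ± 0.46 (adjusted p = 0.411), and 1.34 ± 0.27 without HFD+APS 1 (adjusted p = 0.0452).

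Within the slide that held HFD+APS 1 and the HFD arrays, HFD+APS 1 lay below the HFD mean for 30 of the 35 members, with a median difference of -0.42. For HFD+APS 2 and HFD+APS 3, on the other slide, the counts were 27 and 24 and the medians -0.39 and -0.13. Over all 17633 features, 8598, 8993 and 8485 lay below the HFD mean in HFD+APS 1, HFD+APS 2 and HFD+APS 3. The medians over all features were 0.01, -0.01 and 0.01. In HFD+APS 1 Mcm5 was -1.19, Mcm2 -1.06, Gins2 -0.92 and Uhrf1 -1.06 relative to the HFD mean, and Asf1b -0.32, against -1.18 and -1.28 in HFD+APS 2 and HFD+APS 3.

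**Figure D2:**
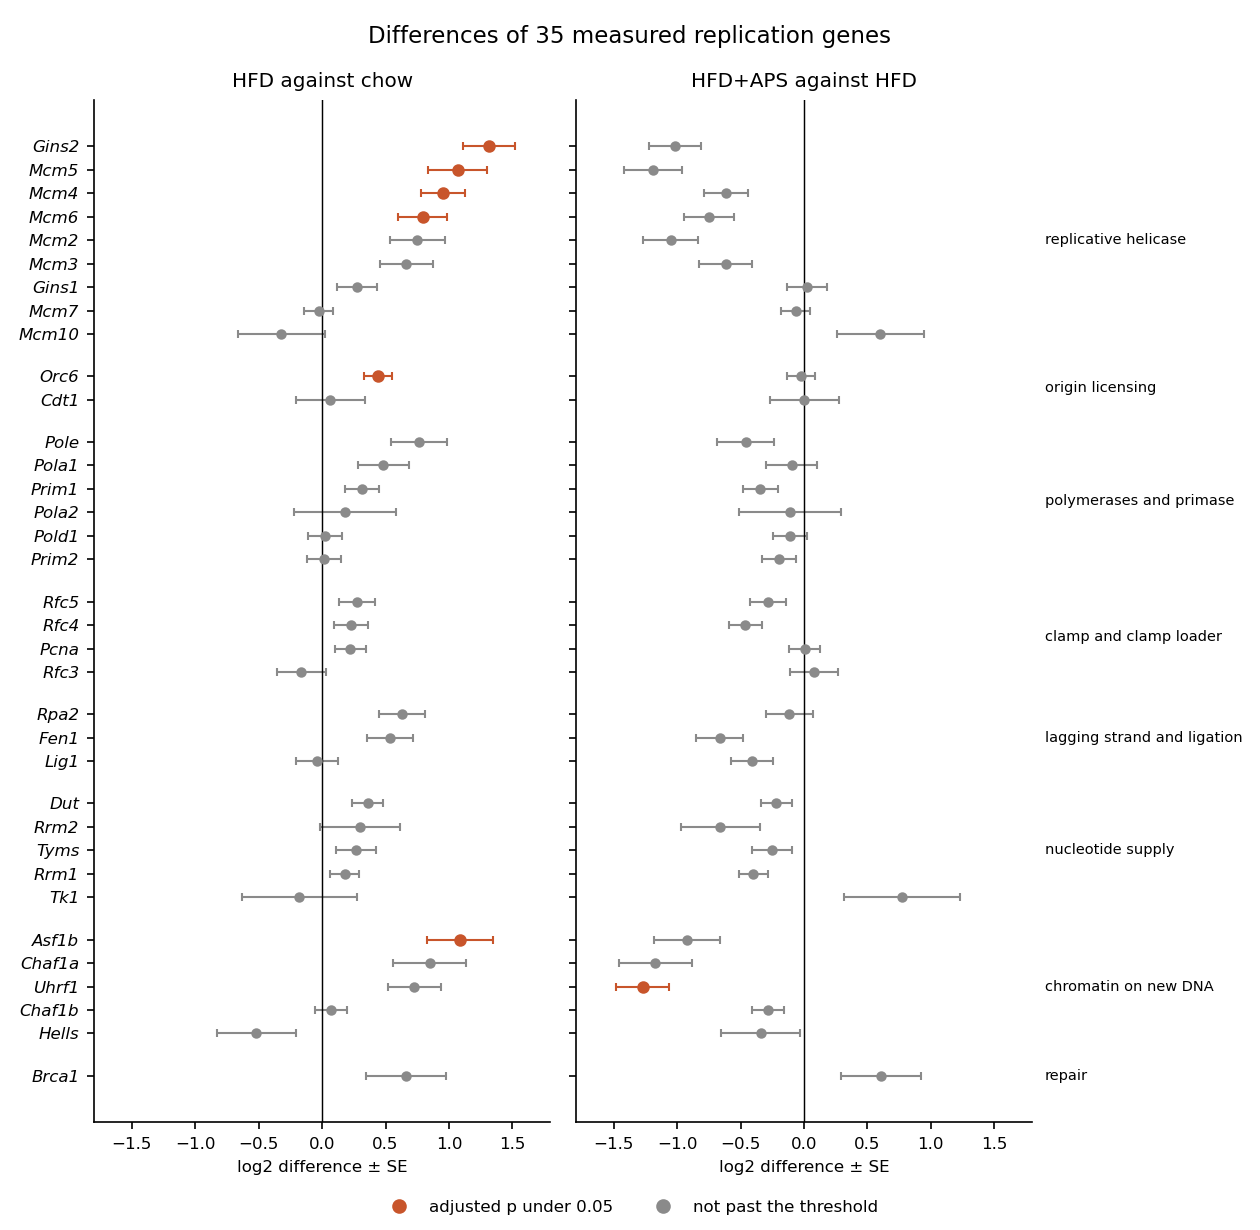
Log2 difference ± SE (x axis) of the 35 measured replication genes (y axis, 1 gene per line) in HFD against chow and in HFD+APS against HFD. Points are coloured by whether limma's adjusted p was under 0.05, with fitted values also for genes near background such as Gins2. In HFD against chow 29 genes lie right of 0 and 6 are past the threshold. In HFD+APS against HFD 28 lie left of 0 and only Uhrf1 is past it.

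Set against chow, HFD+APS livers had 0 of 35 measured members past the threshold in either direction, where 0.958% of all features rose, 2.5% fell and 3.46% passed in either direction. At an unadjusted p under 0.05 by limma, 3 members were higher and 3 lower (9.87% and 15.3% of all features). The median difference was 0.02, against -0.03 over all features, and 18 members were positive and 17 negative. Groups did not overlap in 5 members that were higher (12.7% of all features) and in 5 that were lower (18.1% of all features). After Brca1, the smallest p belonged to Orc6 (0.42 ± 0.11, adjusted p = 0.0699). Mcm5 (-0.12 ± 0.23), Mcm6 (0.05 ± 0.20) and Mcm3 (0.05 ± 0.21) differed by less than their errors, while Uhrf1 (-0.54 ± 0.21, adjusted p = 0.156) and Lig1 (-0.45 ± 0.17, adjusted p = 0.145) lay below every chow liver.

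The 5 members that were not measured were Cdc6, the loader of the helicase, Cdc45, its activator, Orc1, the largest origin recognition subunit, Pole2, a subunit of the leading-strand polymerase, and Exo1, an exonuclease. Orc1 and Exo1 were well above background on no array, Cdc6 on 1 chow array, Cdc45 on 1 HFD+APS array, and Pole2 on 1 HFD+APS and 1 chow array. Exo1 nevertheless read -5.48, -5.19 and -4.89 in HFD+APS livers, -3.67, -4.11 and -4.54 in HFD livers, and -4.33, -4.45 and -4.93 in chow livers, values that have no sure order at background. Among the 35 measured members, 29 were well above background on all 9 arrays, and Gins2, Hells and Pola2 on none of a group's arrays.

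Other genes of the pathway were read from a list of 50 further replication genes, of which 49 were measured. In HFD against chow 5 rose and 1 fell (4.55% and 6.37% of all features), with a median of 0.08, against 0.30 for the members. With slide as a random block, with no filter on dim probes, or without chow 2 or chow 3, 0 of them passed. Pold4, an accessory subunit of the lagging-strand polymerase, rose by 0.59 ± 0.12 (adjusted p = 0.0257), Dck, which salvages deoxycytidine, by 0.91 ± 0.19 (adjusted p = 0.0260), and Timeless, a fork protection factor, by 0.77 ± 0.16 (adjusted p = 0.0272). Dna2, a flap nuclease, fell by 0.66 on the log2 scale (SE 0.16, adjusted p = 0.0362), and Samhd1 and Top2a, named after their values were seen, also rose. Between HFD+APS and HFD 0 of 49 passed (1.5% of all features). There limma gave an unadjusted p under 0.05 for 10 that were lower and 2 higher (9.48% and 8.38% of all features). Against chow, 1 passed in HFD+APS (3.46% of all features), Pold4, which rose by 0.62 ± 0.12 (adjusted p = 0.0393).

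Among 29 measured regulators of S phase, 3 rose in HFD relative to chow (4.55% of all features), of which 1 did with slide as a random block. In HFD+APS 2 fell relative to HFD and 1 relative to chow (1.03% and 2.5% of all features). These counts were 0 with only the 2 groups compared, while slide as a fixed block also gave 0 for HFD+APS against HFD. Ccna2, the S-phase cyclin A2, had -2.89, -3.81 and -2.83 in HFD+APS livers, -1.59, -0.97 and -1.0 in HFD livers, and -3.12, -4.12 and -3.77 in chow livers, with the HFD livers above all others. Ccna2 rose by 2.48 ± 0.34 in HFD relative to chow (adjusted p = 0.00944) and fell by 1.99 in HFD+APS relative to HFD (SE 0.34, adjusted p = 0.0364). Ccne1, cyclin E1, which starts S phase, had -2.72, -2.82 and -2.15 in HFD+APS livers, -0.74, -1.03 and -0.65 in HFD livers, and -1.63, -1.70 and -1.64 in chow livers. The 3 groups did not overlap, and HFD+APS was the lowest: Ccne1 rose by 0.85 ± 0.18 in HFD relative to chow (adjusted p = 0.0296), fell by 1.75 in HFD+APS relative to HFD (adjusted p = 0.0100) and fell by 0.90 in HFD+APS relative to chow (adjusted p = 0.0421). Rbl1, the pocket protein p107, was not well above background on any chow array. With chow values limited as for Gins2, HFD was 2.70-fold chow, and the fitted difference had an adjusted p of 0.0271 by limma.

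Genes of mitosis moved further than the replication genes. Of 15 measured among 20, 11 rose in HFD relative to chow (4.55% of all features), with a median of 2.04. In HFD+APS 10 fell relative to HFD (1.03% of all features), with a median of -1.68. Tpx2 was not well above background on any chow array. With chow values limited as for Gins2, HFD was 2.64-fold chow for Tpx2, so its fitted value is not a sure fold. The count for HFD+APS against HFD was 0 with slide as a fixed block or with only the 2 groups compared, and 1 without HFD+APS 2 or without HFD+APS 3. None passed in HFD+APS against chow, where by limma's unadjusted p under 0.05 1 was higher and 1 lower (9.87% and 15.3% of all features). As per-array medians of levels centred on each gene's mean, mitosis genes stood at -0.26, -0.72 and -0.29 in HFD+APS livers, at 0.79, 1.38 and 1.54 in HFD livers, and at -0.55, -0.75 and -0.69 in chow livers. The same medians for the 9 helicase genes were -0.15, -0.39 and -0.08 in HFD+APS, 0.22, 0.41 and 0.89 in HFD, and -0.16, -0.41 and -0.11 in chow. For all 35 measured members they were -0.16, -0.17 and 0.01 in HFD+APS, 0.15, 0.20 and 0.29 in HFD, and -0.15, -0.27 and -0.08 in chow. By these medians HFD 3 was the highest liver in each of the 3 lists and the HFD livers lay above the other 6. Sums of the levels ran otherwise, and a sum weighs the brightest probe most. Among the measured members that was Mcm10, whose log2 level was 4.10 in HFD 3 and 5.89 in HFD+APS 3. The sums are therefore not a reading of the lists as a whole. For the members they were 65.9 to 101.3 in HFD+APS, 60.7 to 81.3 in HFD and 69.1 to 75.6 in chow. For the helicase genes, Mcm10 among them, they were 41.6 to 68.0 in HFD+APS, 30.1 to 50.1 in HFD and 41.3 to 47.9 in chow, and HFD 3 was the lowest liver by both sums.

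Markers of other cells moved with these values in part. The median of HFD minus chow was negative for T and NK cell (-0.41), B and plasma cell (-0.27), cholangiocyte (-0.14) and erythroid (-0.11) markers. Of 8 measured T and NK cell markers 1 fell in HFD relative to chow, Cd4 (-0.72 ± 0.18, adjusted p = 0.0404 by limma). Cd4 was well above background on 0 HFD arrays, and no other marker of these lists passed in that comparison. Of 6 neutrophil markers 3 were measured, and their median centred level was 0.67, -0.54 and -0.91 in HFD+APS livers, 0.18, -0.23 and 3.13 in HFD livers, and 0.04, -1.50 and -0.68 in chow livers, with summed levels of 2.74 to 8.73 in HFD+APS livers, 4.46 to 49.6 in HFD livers and 1.36 to 6.33 in chow livers. Of 8 monocyte and macrophage markers 6 were measured, 2 rose in HFD relative to chow, and their summed levels were 38.2 to 65.3 in HFD+APS, 67.0 to 77.9 in HFD and 20.1 to 46.9 in chow. By the median centred level of these markers, HFD+APS (-0.32 to 0.46) overlapped HFD (0.22 to 0.83). The summed levels of the 7 Kupffer cell markers, of which 0 passed in HFD against chow by limma (4 higher and 0 lower at an unadjusted p under 0.05), were 43.3 to 94.6 in HFD+APS, 56.4 to 87.6 in HFD and 34.7 to 50.8 in chow, and by the median centred level chow 2 was the lowest liver, at -1.18. All 7 endothelial markers were measured, 2 rose in HFD relative to chow, and their summed levels were 59.6 to 68.7 in HFD+APS, 55.5 to 65.9 in HFD and 28.3 to 46.0 in chow. Of 7 stellate cell markers, all measured, 2 rose in HFD relative to chow, the collagen genes Col1a1 (2.08 ± 0.45, adjusted p = 0.0294) and Col3a1 (1.79 ± 0.30, adjusted p = 0.0151). HFD+APS minus HFD was -1.69 ± 0.45 for Col1a1 (adjusted p = 0.112) and -1.49 ± 0.30 for Col3a1 (adjusted p = 0.0585), and in both genes every HFD liver lay above every other liver. Summed levels of the stellate markers were 110.7 to 129.1 in HFD+APS, 115.5 to 137.5 in HFD and 68.6 to 122.4 in chow. Their median centred levels, in which the brightest probe does not weigh most, were -0.06 to -0.04 in HFD+APS, 0.02 to 0.24 in HFD and -0.72 to 0.09 in chow. The part of these cells in the differences of the replication genes was not tested. Without HFD 3, 2 members rose in HFD relative to chow, and the median over the members was 0.29.

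**Figure D3:**
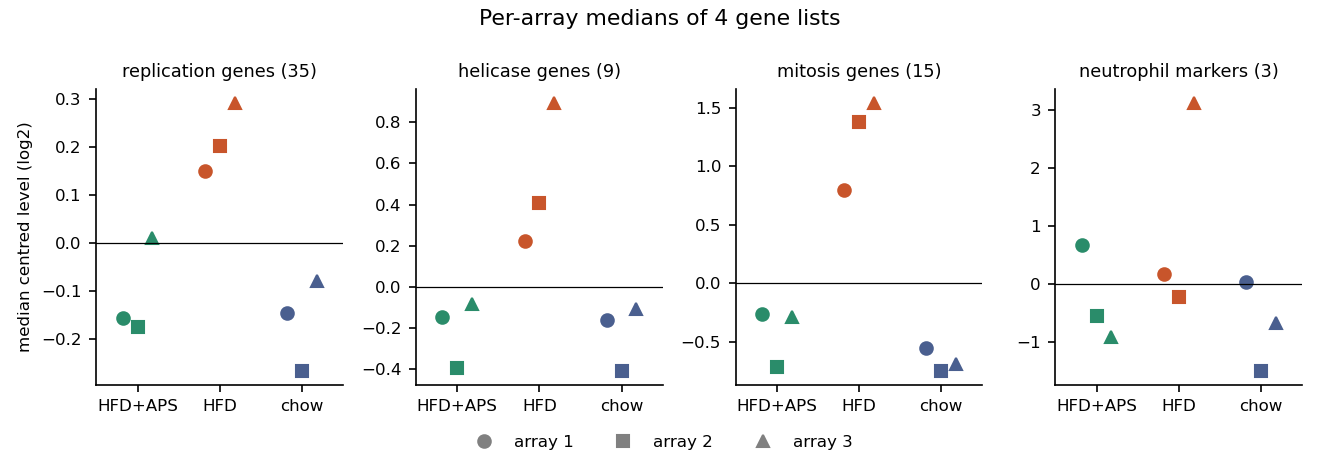
Median over each list of levels centred on each gene's mean (log2, y axis) per array in HFD+APS, HFD and chow livers (x axis), for 35 replication genes, 9 helicase genes, 15 mitosis genes and 3 neutrophil markers. The HFD livers are highest in the replication, helicase and mitosis lists, and HFD 3 stands apart at 3.13 in the neutrophil markers.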

How the data were processed

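Total RNA of 9 livers was hybridised to 1-colour (Cy3) Agilent arrays. Per the file headers, each deposited intensity is the processed signal of 1 spot, from which background and a spatial trend had been removed within the array, with no normalization between arrays (Feature Extraction 10.7.1.1, and 10.7 in the submitters' processing notes, which also name limma without its role). The authors also deposited a table of log2 values with column medians of 4.98 to 4.99, whose correlation with log2 of the scanner's signal was 0.9969 or higher. Its normalization is not given in the sources used here, and it served as an alternative. With 1 colour, the direction of a ratio does not arise.

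Signals were read in R 4.3.3 (package data.table, version 1.17.8). An array carried 45018 spots including 1639 controls, and had an upper-quartile signal of 209.7 (chow 2) to 264.7 (HFD 2). Control and outlier spots were left out, replicate spots averaged and each array's 75th percentile subtracted on the log2 scale. Probes well above background on at least 3 of 9 arrays entered, the brightest probe stood for its gene, and 17633 features were fitted in limma 3.58.1 (lmFit, eBayes, 6 residual degrees of freedom) in 1 fit over the 3 groups. Members were matched by the array's gene names. The number of arrays limits the precision, and the comparisons share groups.

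The slides follow from the array barcodes. Replicate numbers are not said to pair the livers. Deviations of same-numbered livers correlated at -0.17 to 0.16, which with 3 livers a group cannot exclude a pairing. Values on every array were given for members past a threshold and for the 4 others with the largest difference in HFD against chow, and for a few members (Mcm7, Mcm10, Pcna, Hells, Brca1, Tk1 and Exo1), like the markers Col1a1 and Col3a1, chosen after their values were seen. Up to 4 genes of the other replication and regulator lists were named, those with the smallest p. The members and all lists were chosen with earlier results of these data known. The fit was tested on simulated data.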

Additional observations from a re-analysis of the deposited data

How the results depend on the processing

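The direction of the members' median held under every alternative tried in HFD against chow (0.20 with normexp background correction, 0.29 to 0.40 leaving out 1 liver) and in HFD+APS against HFD (-0.14 with array weights, -0.42 with slide as a fixed block, -0.40 to -0.22 leaving out 1 liver). In HFD+APS against chow, where the median was near 0, it ran from -0.07 to 0.09 leaving out 1 liver.

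The counts of called members were less stable. In HFD against chow the 6 became 2 with no filter on dim probes or with slide as a random block, and 0 to 8 leaving out 1 liver, while it was 9 with array weights, 8 with quantile normalization or with probes on all 9 arrays, 7 with the deposited table, 6 with normexp or the mean of a gene's probes, and 5 with only the 2 groups. In HFD+APS against HFD the 1 became 0 with normexp, quantile normalization, the deposited table, no filter, only the 2 groups compared, or slide as a fixed block, 2 with only probes detected on all 9 arrays or with the mean of a gene's probes, 7 with array weights, and 0 to 3 leaving out 1 liver (0 without chow 2, chow 3, HFD 2, HFD 3, HFD+APS 2 or HFD+APS 3, and 3 without HFD+APS 1). In HFD+APS against chow the 0 became 2 with probes on all 9 arrays, 4 with array weights, and 0 to 2 leaving out 1 liver (2 without HFD+APS 1). Replicate numbers are not said to pair the livers. With the replicate block 4 members were called in HFD against chow, 1 in HFD+APS against HFD (Mcm5) and 0 in HFD+APS against chow.

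Alternatives for the other lists were chosen after seeing the data. For other replication genes, the 6 of HFD against chow became 3 with normexp, 0 with no filter or slide as a random block, 2 with the replicate block, and 0 to 7 leaving out 1 liver. For HFD+APS against HFD the 0 became 1 with normexp, with probes on all 9 arrays or with the replicate block, 3 with array weights, and 0 to 1 leaving out 1 liver. For HFD+APS against chow the 1 became 0 with no filter or slide as a random block, 8 when arrays were weighted, and 0 to 2 leaving out 1 liver. For S-phase regulators, the 3 of HFD against chow became 1 with no filter or slide as a random block, 5 when arrays were weighted, and 1 to 5 leaving out 1 liver. For HFD+APS against HFD the 2 became 4 with normexp or array weights, 1 with no filter, slide as a random block or the replicate block, 0 with only the 2 groups or slide as a fixed block, and 1 to 2 leaving out 1 liver. For HFD+APS against chow the 1 became 0 with normexp, quantile normalization, the deposited table, no filter, only the 2 groups, slide as a random block or the replicate block, 3 with probes on all 9 arrays, 6 with array weights, and 0 to 2 leaving out 1 liver. For mitosis genes, the 10 of HFD+APS against HFD became 5 with no filter or the replicate block, 0 with only the 2 groups or slide as a fixed block, and 1 to 9 leaving out 1 liver, and the 0 of HFD+APS against chow became 1 with array weights. The causes of these changes were not tested. Signal over background limits the values of Gins2, Uhrf1, Chaf1a, Hells, Pola2 and Rrm2, which were not well above background on every array.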
